A study of Mus musculus with 12 samples.

Results

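The response of the wild-type (WT) mouse oviduct to pregnant mare serum gonadotropin (PMSG) was described from 6 of the 12 arrays of the series, the 3 WT arrays without PMSG and the 3 PMSG-treated WT arrays. Each array, an Affymetrix Mouse Genome array, held RNA of whole oviducts pooled from 3 to 4 immature female mice on a C57BL/6 background, and replicates were made from different mice. The WT mice were siblings of the knockout mice and carried 1 floxed and 1 deleted copy of ESR1 (ESR1 flox/-), some of them with ZP3Cre, a Cre recombinase driven in the oocyte. WT oviducts were collected at 23 days of age, and PMSG-treated WT oviducts 48 h after 5 IU PMSG given i.p. at 23 days of age. The treated mice were therefore 2 days older, so that the effects of age and of PMSG cannot be told apart. The other 6 arrays, 3 of ESR1KO and 3 of PMSG-treated ESR1KO mice with both copies of ESR1 deleted, followed the same ages and dose and were used for the spread between arrays and for 1 comparison.

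PMSG acts on the ovary like the gonadotropins of the pituitary, so that follicles grow and make estradiol. The oviduct is a tube of ciliated and secretory epithelium on a stroma wrapped in smooth muscle, and it stores and carries the gametes and the early embryo. Estradiol acts on it through estrogen receptor-α (ESR1), a transcription factor that binds DNA at estrogen response elements, and changes its secretion and its contraction. The comparison asked which transcripts of the WT oviduct differ once the ovary has been stimulated.

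Values were log2 expression signals per probe set, and a difference of 1 is a 2-fold difference. To be called, a probe set had to differ 2-fold or more with an adjusted p below 0.05 in a limma fit over all 45101 rows. A call favours groups that do not overlap, and the share of all rows with such groups was not counted. Statements on overlap are therefore descriptions and add no evidence to a call. A signal under 4 was taken as near background, where the background correction compresses differences. Only rows that could be located through the study's list of changed genes could be named. These were 1914 genes, chosen in the study on these same arrays, so that counts among them describe that list and not the transcriptome. In whole oviducts, fewer cells of a type and less RNA per cell cannot be told apart. Esr1 itself, the gene deleted in the knockout, had signals of 12.94, 12.92 and 13.05 in WT and of 12.62, 12.82 and 12.21 in PMSG-treated WT. In ESR1KO it had signals of 10.42, 12.13 and 11.05 and in PMSG-treated ESR1KO of 10.11, 10.62 and 10.56, all under the WT arrays but far above background. Where its probes lie relative to the deleted part was not analysed here.

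One of the PMSG-treated WT arrays stood apart from the other 5. Replicate 3 scored 143.4 on the first principal component of the 6 arrays, which held 64.5% of the variance, whereas the other 5 arrays scored from -41.3 to -11.1. The second component, with 16.4%, had WT at -35.6 to -22.4 and PMSG-treated WT replicates 1 and 2 at 49.3 and 40.3, and replicate 3 lay between them at -8.5. Over all rows the WT arrays correlated with each other at 0.996 and PMSG-treated WT replicates 1 and 2 at 0.994, but replicate 3 correlated with these at only 0.969 and 0.974. In replicate 3, 2564 rows lay at least 2-fold above and 2335 at least 2-fold below the mean of the other replicates of its group. These numbers were 109 to 422 for the WT arrays, 1096 above and 1537 below for PMSG-treated WT replicate 1, 502 and 1089 for replicate 2, and 189 to 1065 for the PMSG-treated ESR1KO arrays. Array medians (5.63 to 5.75) did not set replicate 3 apart. The deposited signals had been quantile-normalized, which makes the medians of arrays alike, so that the medians are no check of this array. The results below were therefore obtained with and without this array.

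**Figure D1:**
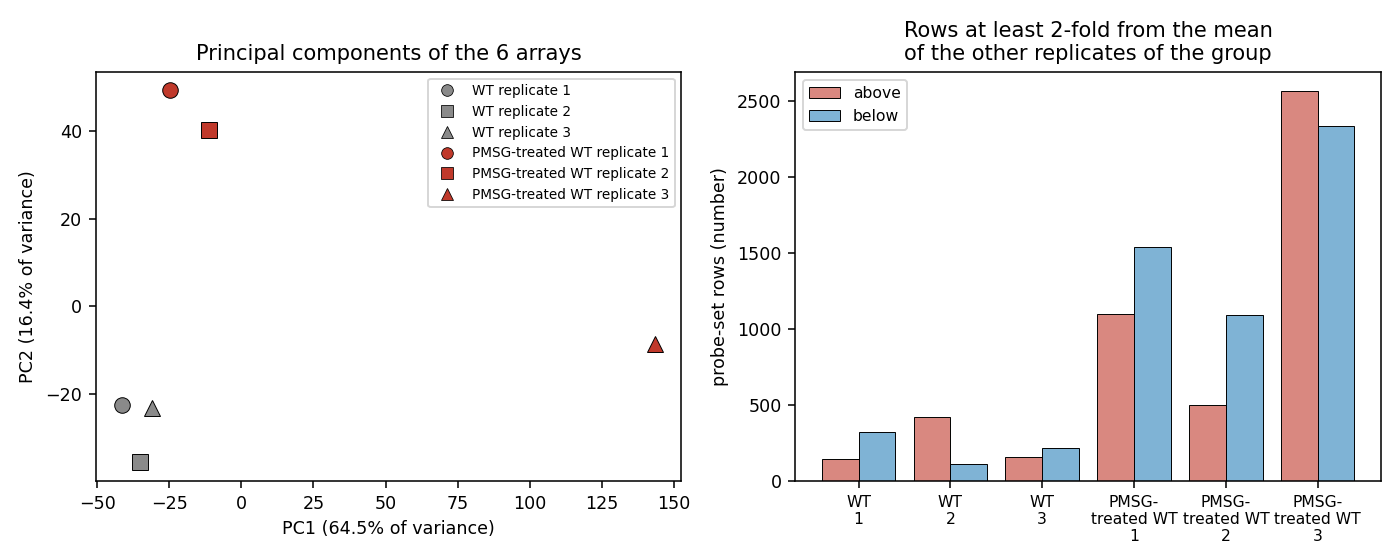
Left, scores of the 3 WT (grey) and 3 PMSG-treated WT arrays (red) on the first and second principal components of all rows, with replicate 3 of PMSG-treated WT at 143.4 on the first and every other array below 0. Right, number of probe-set rows on each array at least 2-fold above or below the mean of the other replicates of its group, highest for PMSG-treated WT replicate 3 (2564 above and 2335 below).

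With all arrays, 113 of 45101 probe sets were called (0.251%). PMSG-treated WT was higher in 80 of these (0.177%) and lower in 33 (0.0732%). This balance depended on the rule: 293 probe sets were higher and 435 lower at 2-fold with an unadjusted p below 0.01 (limma). With array weights 615 and 648 were called, but the estimation of the weights did not converge, so that these numbers say nothing on the balance. Without replicate 3, 346 were called (0.767%), 220 higher (0.488%) and 126 lower (0.279%). The 346 included 109 of the 113, 77 of the higher and 32 of the lower. Of the located rows, 76 of 1997 were called (3.81%), 54 higher and 22 lower, and 165 without replicate 3 (8.26%). These shares are the background for each count of called genes in a list below, and no list was tested against them. The 75 called genes with 1 symbol are the ones described here, 53 higher by 2.06-fold to 64.2-fold and 22 lower by 2.58-fold to 12.4-fold. In 12 of the 53 the WT mean was near background, and in 13 of the 22 the PMSG-treated WT mean was.

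**Figure D2:**
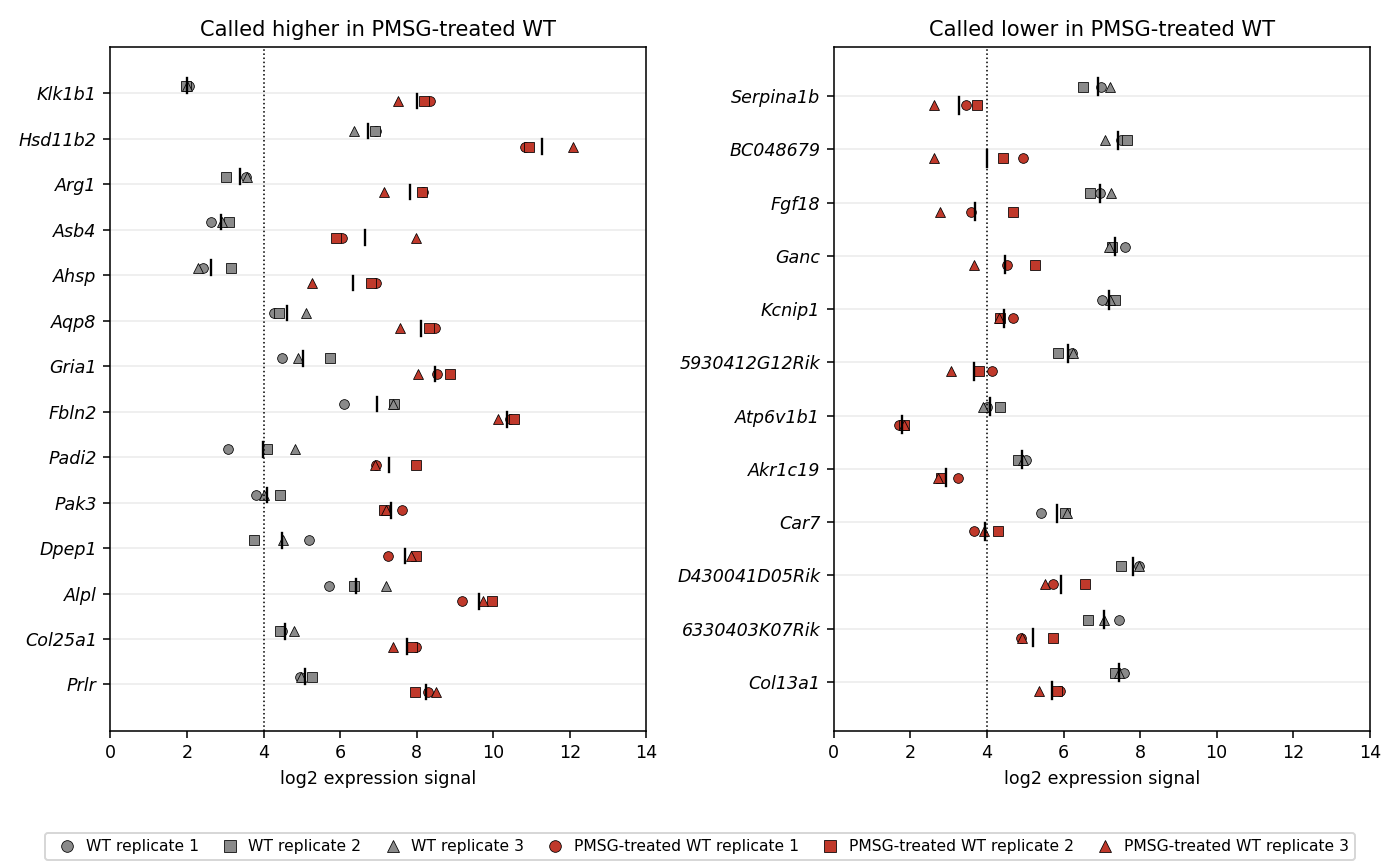
Log2 expression signal of 14 of the 15 largest higher (left) and the 12 largest lower called genes (right) in each WT (grey) and PMSG-treated WT array (red), with the symbol shape giving the replicate and short black bars the group means; the dotted line marks 4, under which signals were taken as near background. Only called genes whose groups do not overlap were drawn, so that all PMSG-treated WT arrays lie on 1 side of WT by selection. Replicate 3 was often at the end of its group, as for Asb4 (7.99) and BC048679 (2.61).

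The kallikreins, secreted serine proteases encoded in 1 cluster of closely related genes, included the gene with the largest difference. Of 21 kallikrein genes on the array 5 were located, and 4 of them were higher, beside 3.81% of all located rows called. Klk1b1, a kallikrein 1-related peptidase, had signals of 2.05, 1.97 and 2.01 in WT, and of 8.34, 8.18 and 7.52 in PMSG-treated WT. It thus went from background to a moderate signal on all 3 arrays, a log2 difference of 6.00 ± 0.21 (SE; 64.2-fold, adjusted p = 2.29e-05, limma). Klk1b21 was already well expressed in WT (8.58, 8.41 and 8.85) and had signals of 11.52, 11.85 and 10.76 in PMSG-treated WT, a difference of 2.77 ± 0.27 (6.80-fold, adjusted p = 0.00467, limma). Klk1, the tissue kallikrein that releases kinins from kininogen, had signals of 6.36, 6.40 and 6.20 in WT and of 9.31, 9.70 and 8.59 in PMSG-treated WT, and was 7.37-fold higher (2.88 ± 0.30, adjusted p = 0.00714, limma). Klk1b24 was 8.28-fold higher (adjusted p = 0.0328, limma), from 6.83, 5.88 and 6.14 to 9.34, 10.09 and 8.57. In all 4, replicate 3 had the lowest signal of the treated arrays and no treated array overlapped with WT. Klk8, which encodes neuropsin, did not pass the test (-1.30 ± 0.50, adjusted p = 0.441, limma), and its treated arrays were all near background. Probe sets of such similar genes may share transcripts, which was not tested, so that the values of the single genes are uncertain. The call of Klk1b24 was lost without any single one of the 9 fitted arrays other than PMSG-treated WT replicate 3, whereas the other 3 were called each time.

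Of 5 located steroid-modifying enzymes, 1 was higher and 1 lower, beside 3.81% of all located rows called. Hsd11b2, the enzyme that inactivates corticosterone and the located gene with the largest increase after Klk1b1, had signals of 6.93, 6.92 and 6.36 in WT and of 10.83, 10.93 and 12.09 in PMSG-treated WT. The difference was 4.54 ± 0.33 (23.3-fold, adjusted p = 0.0021, limma), with replicate 3 farthest from WT, and it was 17.6-fold without that array. Akr1c19, an aldo-keto reductase of the family that reduces steroids, was lower, from 5.02, 4.80 and 4.94 to 3.25, 2.79 and 2.72. The treated arrays of Akr1c19 were all near background, at 4.00-fold lower (-2.00 ± 0.20, adjusted p = 0.0058, limma). The other 3 located steroid-modifying enzymes were not called.

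The steroid receptors were not called in either direction. Of 11 receptor genes 5 were located. Esr1 differed by -0.42 ± 0.18 (adjusted p = 0.531, limma). Pgr, the progesterone receptor, had signals of 12.58, 12.60 and 12.61 in WT and of 13.21, 13.30 and 12.58 in PMSG-treated WT. Replicates 1 and 2 of Pgr thus lay above WT and replicate 3 within it, and the difference was 0.43 ± 0.19 with all arrays (adjusted p = 0.528, limma) and 0.66 without replicate 3 (adjusted p = 0.0494), under the 2-fold minimum in both. Nr3c1, the glucocorticoid receptor, differed by -0.46 ± 0.12 (adjusted p = 0.192, limma), and the membrane progestin receptors Paqr5 and Paqr8 by -0.94 and 0.69 (adjusted p = 0.306 and 0.379, limma).

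Of 34 genes listed as classical targets of estrogen, 14 were located, 5 were higher and none lower, beside 3.81% of all located rows called. The median log2 difference of the 14 was 0.86, beside -0.04 for all located genes and 0.01 for all rows. Oxtr, the oxytocin receptor that drives contraction of reproductive smooth muscle, had signals of 4.32, 5.01 and 5.02 in WT and of 7.74, 7.68 and 8.33 in PMSG-treated WT. It was 8.80-fold higher (3.14 ± 0.27, adjusted p = 0.0027, limma), with the groups far apart. Padi2, which converts arginine residues of proteins to citrulline, varied more in WT (3.06, 4.08 and 4.82) and had signals of 6.94, 7.98 and 6.91 after PMSG (9.75-fold, adjusted p = 0.028, limma). Its relative Padi1 was 3.39-fold higher (adjusted p = 0.031, limma). In both Padi genes every treated array lay above every WT array. Rasd1, a small GTPase first found as induced by dexamethasone, had signals of 7.55, 7.50 and 6.86 in WT and of 9.40, 10.15 and 10.13 in PMSG-treated WT (6.02-fold, adjusted p = 0.0119, limma). Lcn2, a secreted lipocalin that binds siderophores, was 3.72-fold higher from a high level, 10.55 to 10.73 in WT and 12.29 to 12.87 after PMSG (adjusted p = 0.0113, limma). Its signals were higher still in ESR1KO, 13.75 to 14.46 without and 13.45 to 14.18 with PMSG. Oxtr, Padi2, Padi1 and Rasd1 lay below the WT arrays on all arrays of ESR1KO and PMSG-treated ESR1KO. WT and PMSG-treated WT did not overlap in any of these 5 higher genes, which their call favours. Greb1, a standard marker of estrogen action, lay higher on all 3 treated arrays (7.38, 7.79 and 8.41) than on the WT arrays (6.30, 6.47 and 5.64) but was not called (1.72 ± 0.32, adjusted p = 0.0876, limma). Muc1 (-1.19), Ctsd (-0.78), Ltf (-0.33) and Myc (-0.06) had differences below 0 and were not called. Padi2 was lost without any single array except WT replicate 3 and PMSG-treated WT replicate 3, Rasd1 without WT replicate 2 or 3, and Lcn2 without any 1 of the WT arrays.

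Some receptor and signalling genes were also called. Prlr, the prolactin receptor, had signals of 4.95, 5.27 and 4.99 in WT and of 8.29, 7.95 and 8.50 in PMSG-treated WT, a difference of 3.18 ± 0.20 (9.03-fold, adjusted p = 0.00111, limma). Pak3, a kinase activated by small GTPases, had signals of 3.80, 4.43 and 4.00 and of 7.62, 7.14 and 7.19 (9.48-fold, adjusted p = 0.00236, limma). In both genes replicate 3 lay within 1 log2 unit of the other treated arrays. Gria1, a subunit of AMPA glutamate receptors, had signals of 4.48, 5.73 and 4.89 and of 8.52, 8.88 and 8.03 (10.9-fold, adjusted p = 0.0058, limma). Lgr6, a receptor for R-spondins in Wnt signalling, was 2.43-fold higher (adjusted p = 0.0365, limma). It was the 1 called gene of 17 located Wnt ligands, receptors and inhibitors, beside 3.81% of all located rows called. The call of Lgr6 was lost without any single array other than replicate 3 of PMSG-treated WT. The list of 8 located receptors and ligands acting on smooth muscle contraction held Oxtr and Prlr as its called members, beside 3.81% of all located rows called. Ednrb (1.15), Ednra (-0.78) and Ptgfr (-1.0), the endothelin and prostaglandin F receptors, were not called.

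Water channels and ion transporters were called in both directions. Of 46 located genes for channels, pumps and aquaporins 4 were higher and 3 lower, beside 3.81% of all located rows called. The median of the 46 was -0.03. Aqp8, a water channel of secretory epithelia, had signals of 4.28, 4.41 and 5.10 in WT and of 8.48, 8.31 and 7.57 in PMSG-treated WT (11.5-fold; 3.52 ± 0.31, adjusted p = 0.00302, limma). Aqp5, a water channel of glands, had signals of 5.31, 6.00 and 6.50 and of 7.68, 8.37 and 7.91 (4.13-fold, adjusted p = 0.0492, limma), a call lost without any single array other than replicate 3 of PMSG-treated WT. Both water channels were thus higher on every treated array. Kcnma1, the pore subunit of the large-conductance calcium-activated potassium channel, was 2.68-fold higher (adjusted p = 0.00111, limma), with 2.71, 2.48 and 2.43 in WT and 3.99, 3.93 and 3.98 after PMSG, all near background. Clca1, a secreted regulator of chloride conductance, was 2.15-fold higher (adjusted p = 0.0418, limma), also at low signals. The lower genes included a channel partner and a pump subunit. Kcnip1, which binds voltage-gated potassium channels, was lower, with 7.0, 7.34 and 7.22 in WT and 4.67, 4.35 and 4.32 after PMSG (6.67-fold, adjusted p = 0.00467, limma). Atp6v1b1, a subunit of the proton pump of acid-secreting cells, was 4.91-fold lower (adjusted p = 0.00368, limma), from 4.00, 4.35 and 3.89 to 1.70, 1.82 and 1.84. Of the 16 other settings run for single genes, Clca1 kept its call under 4, Padi1 under 7 and Kcnma1 under 15.

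Collagens and other matrix genes also went both ways, 3 of 29 higher and 1 lower, beside 3.81% of all located rows called. Fbln2, a matrix glycoprotein of basement membranes and elastic fibres, had signals of 6.09, 7.42 and 7.37 in WT and of 10.44, 10.55 and 10.13 in PMSG-treated WT (10.7-fold, adjusted p = 0.0222, limma). Col25a1, a transmembrane collagen, had signals of 4.48, 4.42 and 4.79 and of 7.99, 7.88 and 7.38 (9.11-fold, adjusted p = 0.00189, limma). Col11a1, a chain of a fibrillar collagen, had signals of 7.29, 6.81 and 6.76 and of 9.53, 9.53 and 10.67 (7.75-fold, adjusted p = 0.0105, limma). In all 3 every treated array lay above every WT array. Col13a1, another transmembrane collagen, was lower, from 7.59, 7.33 and 7.45 to 5.90, 5.84 and 5.35 (3.39-fold, adjusted p = 0.0175, limma). The matrix genes Col1a2 (0.35), Fn1 (-0.48), Postn (-0.02) and Lum (-0.27) were not called, and the median of the list was -0.02. Of these calls that of Col25a1 was kept whichever array was left out. Fbln2 was lost without WT replicate 2 or 3 or PMSG-treated WT replicate 1 or 2, Col11a1 without WT replicate 2 or 3, and Col13a1 without any 1 of the WT arrays or PMSG-treated ESR1KO replicate 3.

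Among the remaining higher genes were enzymes and secreted proteins. Arg1, the arginase that splits arginine into ornithine and urea, had signals of 3.54, 3.03 and 3.56 in WT, near background, and of 8.17, 8.15 and 7.15 in PMSG-treated WT (21.8-fold; 4.45 ± 0.33, adjusted p = 0.0021, limma). Asb4, a substrate adaptor of a ubiquitin ligase, went from 2.64, 3.10 and 2.91 to 6.06, 5.88 and 7.99 (13.6-fold, adjusted p = 0.0231, limma). Replicate 3 of Asb4 lay about 2 log2 units above the other treated arrays, and without it the difference was 8.51-fold. Dpep1, a dipeptidase of the cell surface, went from 5.20, 3.75 and 4.50 to 7.26, 7.98 and 7.85 (9.29-fold, adjusted p = 0.0115, limma). Alpl, the tissue-nonspecific alkaline phosphatase, went from 5.7, 6.35 and 7.21 to 9.19, 9.96 and 9.72 (9.23-fold, adjusted p = 0.0119, limma). Of 9 located secretory products of the oviduct, Lcn2 and Clu were higher, beside 3.81% of all located rows called. Clu, the secreted chaperone clusterin, had signals of 12.26 to 12.65 in WT and of 13.62 to 13.99 in PMSG-treated WT (2.45-fold, adjusted p = 0.0102, limma). Muc4 (-1.46) and Agr2 (0.32) were not called. Arg1 was called whichever array was left out, whereas Alpl and Clu were lost without WT replicate 2, Dpep1 without WT replicate 3, and Asb4 without any single WT or PMSG-treated ESR1KO array.

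Smaller differences were called in genes of junctions, lipids and retinoids. Gja1, the gap junction protein connexin 43, was 3.30-fold higher (adjusted p = 0.0427, limma), from 11.33 to 11.60 in WT and 12.85 to 13.83 after PMSG. Fabp5, a carrier of fatty acids and retinoic acid, was 2.46-fold higher (adjusted p = 0.0328, limma). Adh1, an alcohol dehydrogenase that oxidizes retinol, was 2.34-fold higher (adjusted p = 0.0417, limma). The groups did not overlap in any of the 3. Lrat (1.76, adjusted p = 0.0515) and Rbp4 (1.04, adjusted p = 0.0562), which esterify and carry retinol, missed the limma threshold with all arrays and passed it without replicate 3. Of 14 located retinoid genes 1 was thus higher with all arrays and 3 without replicate 3. Of all located rows 3.81% were called with all arrays and 8.26% without replicate 3. Krt85, a hair keratin, was 5.42-fold higher (adjusted p = 0.00236, limma) but at low signals, 4.27 to 5.21 after PMSG. Serpinb6b, an intracellular protease inhibitor, was 2.70-fold higher (adjusted p = 0.042, limma). The calls of Gja1, Fabp5, Adh1 and Serpinb6b were each lost without 6 or more of the 9 single arrays.

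Of the 22 lower genes, 13 ended near background. Serpina1b, which encodes a form of the protease inhibitor alpha-1 antitrypsin, had signals of 6.99, 6.50 and 7.21 in WT and of 3.45, 3.73 and 2.62 in PMSG-treated WT (12.4-fold; -3.63 ± 0.31, adjusted p = 0.00273, limma). Fgf18, a secreted fibroblast growth factor, had signals of 6.96, 6.68 and 7.25 and of 3.58, 4.69 and 2.76 (9.75-fold, adjusted p = 0.0253, limma), the 1 called gene of 24 located growth factor genes. BC048679 went from 7.51, 7.65 and 7.09 to 4.95, 4.42 and 2.61 (10.7-fold, adjusted p = 0.0413, limma). Replicate 3 was the lowest treated array in these 3 genes, and without it the differences were 9.91-fold, 7.10-fold and 6.65-fold. Ganc, a neutral alpha-glucosidase, went from 7.61, 7.27 and 7.18 to 4.52, 5.25 and 3.65 (7.36-fold, adjusted p = 0.0229, limma). Car7, a carbonic anhydrase, was 3.69-fold lower (adjusted p = 0.0266, limma). Cxcr4, the receptor of the chemokine CXCL12, was 2.85-fold lower and stayed well above background, at 9.63 to 9.90 in WT and 8.10 to 8.57 after PMSG (adjusted p = 0.0296, limma). It was the 1 called gene of 25 located chemokine, interleukin and receptor genes, as Fgf18 was of its list, a share near the 3.81% of all located rows. Cdh22, a cadherin, was 3.04-fold lower (adjusted p = 0.00352, limma), and the transcripts 5930412G12Rik, D430041D05Rik and 6330403K07Rik were lower by 5.44-fold, 3.67-fold and 3.65-fold (adjusted p = 0.0453, 0.0433 and 0.0453, limma). Each of these 3 kept its call under 4 of 16 other settings and lost it without any single WT array. Serpina1b and Cdh22 were called whichever array was left out, whereas Fgf18, Ganc, Car7 and Cxcr4 were each lost without WT replicate 2 or 3, PMSG-treated WT replicate 1 or PMSG-treated ESR1KO replicate 3, among others, and BC048679 without any single array other than PMSG-treated WT replicate 1 or 3.

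Several lists held no called gene with all arrays. With 3.81% of all located rows called, a list of 21 would hold about 1 at that share, so that these counts do not set the lists apart. None of 21 located solute carriers was called, with or without replicate 3 (median -0.51, 15 of 21 below 0). None of 10 located genes of prostaglandin synthesis, transport and action was called with all arrays (median -0.86, 7 of 10 below 0), among them Ptgs1 (-0.98), Ptgds (-0.97) and Hpgds (0.47), and Pla2g5 (-1.59), a secreted phospholipase, was lower only without replicate 3. None of 14 axon guidance genes (median -0.40), 16 metalloprotease genes (0.24), 7 genes of the secretory pathway (0.01), 6 interferon-response genes (0.38) and 4 complement genes (-0.31) was called with all arrays. Without replicate 3, Epha4 of the axon guidance list and Mmp10 were lower and Mmp7 was higher. For motile cilium genes 1 of 87, for proliferation genes 2 of 51 and for smooth muscle contractile genes 4 of 24 were located, and none was called. Since genes that were not located could not be read, these counts say nothing about the rest of each group.

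Replicate 3 did not differ alike in all called rows. In the 80 higher rows, the median difference from the WT mean was 1.97, 2.36 and 2.07 on PMSG-treated WT replicates 1, 2 and 3, and replicate 3 lay closest to WT in 31 and farthest in 30. In the 33 lower rows the medians were -1.69, -1.55 and -2.11, and replicate 3 was farthest from WT in 21 and closest in 3. The rows called only without it, 143 higher and 94 lower, were chosen by the spread that replicate 3 adds, and their values are a description. The medians of the 143 were 1.45, 1.44 and 0.60, with replicate 3 closest to WT in 114. Those of the 94 were -1.35, -1.31 and -2.45, with replicate 3 farthest from WT in 62. Replicate 3 therefore lay nearer to WT in most of the higher rows, but farther from WT in most of the lower rows, of those called only without it.

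Of the located genes, 89 were called only without replicate 3. Dmrta1, a doublesex-related transcription factor gene, had signals of 5.21, 4.37 and 4.03 in WT and of 8.11, 7.53 and 6.29 in PMSG-treated WT (9.75-fold without replicate 3, adjusted p = 0.00503, limma). Mogat2, an enzyme of triacylglycerol synthesis, stood at 2.70 to 2.79 in WT and at 6.01, 5.74 and 3.83 after PMSG, so that replicate 3 alone was near background (8.73-fold without it, adjusted p = 0.000157, limma). Mmp7, the matrix metalloprotease matrilysin, was 5.95-fold higher without replicate 3 (adjusted p = 0.0128, limma) and 4.17-fold with it (adjusted p = 0.14). In Hephl1, Ablim3, Pdzrn4 and Rab37 too, replicate 3 was the lowest of the treated arrays. In Emilin2, a matrix glycoprotein, replicate 3 was the highest, with 6.03, 6.72 and 8.36 after PMSG, and the gene missed the threshold with all arrays at an adjusted p of 0.0515 (limma). Among the lower genes, Lgi1, a secreted neuronal protein, went from 8.11, 6.93 and 7.46 to 5.14, 4.30 and 2.54 (6.87-fold without replicate 3, adjusted p = 0.0131, limma). Notum, a secreted enzyme that inactivates Wnt proteins, went from 8.58, 8.26 and 8.54 to 6.23, 6.77 and 4.67 (3.90-fold without replicate 3, adjusted p = 0.00811, limma). In both, replicate 3 lay farthest from WT. Il17rb, a receptor of interleukin 25, went from 8.81, 8.49 and 8.86 to 7.15, 6.77 and 5.62 (3.39-fold, adjusted p = 0.00944, limma). Gpr83, G6pc2, Nsg2, Cdh16 and Poln were also lower without replicate 3, by 3.16-fold to 4.36-fold, and in all 5 replicate 3 was the lowest array. Conversely, Fam46c lost its call without replicate 3, at 1.96-fold, because it no longer reached 2-fold.

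**Figure D3:**
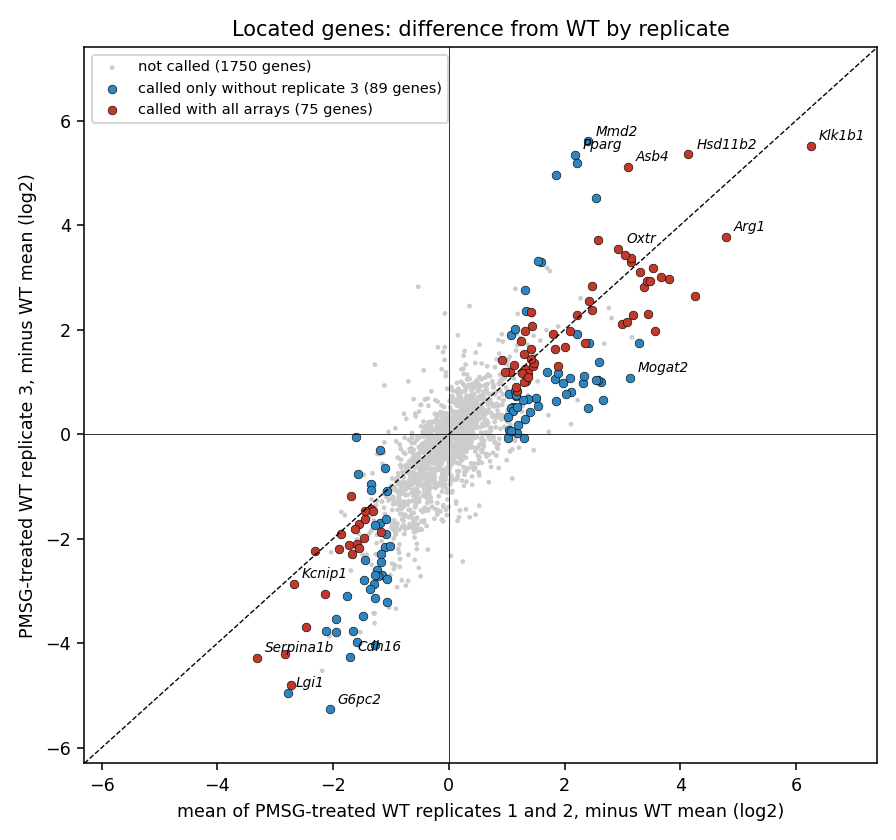
Each located gene by the mean of PMSG-treated WT replicates 1 and 2 (horizontal axis) and by replicate 3 (vertical axis), both as log2 difference from the WT mean, with genes called with all arrays in red (75), genes called only without replicate 3 in blue (89) and the others in grey (1750); the dashed line marks equal values. The red genes lie along the line, from -3.31 to 6.25 on the horizontal axis, and the blue genes mostly lie below it.

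The genes on which replicate 3 differed most from the other treated arrays were also read. Foxp2, a forkhead transcription factor, had a signal of 9.21 on replicate 3 and of 6.11 and 5.61 on replicates 1 and 2, beside 5.97 to 6.69 in WT. Mmd2 (9.35 against 6.74 and 5.57), Pparg, the nuclear receptor of fat cell differentiation (8.48 against 6.03 and 4.61), Rgs13 (8.69 against 6.22 and 5.24) and Glt25d2 (7.51 against 4.06 and 4.76) lay above WT on replicates 1 and 2 and higher still on replicate 3. Chodl, a membrane lectin, had 3.82 on replicate 3 beside 6.19 and 6.81, and Nfe2l3, a leucine zipper transcription factor, 4.10 beside 6.62 and 6.43. Krt13, a keratin of stratified epithelium, had 2.23 beside 4.30 and 4.94. Foxp2, Chodl and Nfe2l3 were called neither with nor without replicate 3. Of fat cell markers none was located.

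Markers of other cell types were read for the whole list that was available, 101 genes of 17 cell types, of which 14 genes of 8 types could be located. None was called. The smooth muscle marker Actg2 ranged from 11.78 to 12.59 in WT and from 12.42 to 12.77 in PMSG-treated WT, the mean of 3 stromal markers (Dpt, Lum and Pdgfra) from 11.85 to 12.09 and from 11.67 to 12.17, and that of 3 endothelial markers (Emcn, Kdr and Pecam1) from 8.05 to 8.39 and from 7.95 to 8.24. The macrophage markers Csf1r and Mrc1 averaged 9.02 to 9.29 and 8.85 to 9.65, but they went opposite ways. Mrc1 lay at 9.36 to 9.50 in WT and higher on every treated array, at 9.74 to 10.38. It differed by 0.71 with all arrays (adjusted p = 0.192, limma) and by 0.91 without replicate 3 (adjusted p = 0.012, limma), under the 2-fold minimum. Csf1r differed by -0.42 and by -0.15 without replicate 3. The neutrophil markers S100a8 and S100a9 averaged 2.76 to 4.04 and 2.82 to 3.81, about background. No marker of ciliated cells, secretory cells, lymphocytes, granulosa cells or oocytes was located, so that the label of whole oviduct could not be checked against its epithelium. One higher gene belongs to red cells. Ahsp, which stabilizes alpha haemoglobin, had signals of 2.43, 3.15 and 2.30 in WT and of 6.94, 6.81 and 5.27 in PMSG-treated WT (13.1-fold, adjusted p = 0.0117, limma), a call lost without WT replicate 1 or 3. Alas2, the heme synthesis enzyme of red cells and the only red cell marker located, had signals of 1.93, 2.76 and 1.56 and of 4.60, 2.93 and 4.07 and was not called (1.78 ± 0.41, adjusted p = 0.155, limma). The part of red cells in the difference of Ahsp was not tested.

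Upstream sequences were read for the called genes since ESR1 binds DNA. RefSeq promoters of GRCm38.p6 matched 37 of the 53 higher and 16 of the 22 lower genes by symbol or synonym, with 46 and 22 promoters. The 250 bases before each start were searched on both strands for the estrogen response element, GGTCA and TGACC 3 bases apart, and for its arm GGTCA alone. They were also searched for TGTTCT, the core of the sites of glucocorticoid and progesterone receptors, and for TGANTCA, the site of AP-1. The full element was found in no promoter of a called gene and in 0.0639% of all 32851 promoters. The GGTCA arm was found in 41.3% of promoters of higher genes, 31.8% of those of lower genes and 35.2% of all promoters. TGTTCT was found in 10.9%, 13.6% and 16.1%, and TGANTCA in 6.52%, 4.55% and 6.75%. The GGTCA arm is also part of the full element, and these shares describe short windows, without a test. The 4 promoters below are those of the most strongly higher genes that hold a GGTCA arm, with the GGTCA arms in capitals on either strand, shown 5′ to 3′ up to the base before the start.
Klk1b1 (chr7:43966501-43966750, plus strand): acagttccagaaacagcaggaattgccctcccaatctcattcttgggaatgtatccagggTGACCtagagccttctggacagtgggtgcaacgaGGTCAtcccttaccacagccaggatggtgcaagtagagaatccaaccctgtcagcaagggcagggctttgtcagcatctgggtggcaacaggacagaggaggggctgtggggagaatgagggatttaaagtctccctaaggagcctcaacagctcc
Dpep1 (chr8:123185985-123186234, plus strand): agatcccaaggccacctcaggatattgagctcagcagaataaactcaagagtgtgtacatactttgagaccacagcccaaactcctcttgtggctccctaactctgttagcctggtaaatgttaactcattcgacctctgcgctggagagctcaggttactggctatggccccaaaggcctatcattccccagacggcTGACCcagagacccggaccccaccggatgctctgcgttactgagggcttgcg
Alpl (chr4:137766476-137766725, minus strand): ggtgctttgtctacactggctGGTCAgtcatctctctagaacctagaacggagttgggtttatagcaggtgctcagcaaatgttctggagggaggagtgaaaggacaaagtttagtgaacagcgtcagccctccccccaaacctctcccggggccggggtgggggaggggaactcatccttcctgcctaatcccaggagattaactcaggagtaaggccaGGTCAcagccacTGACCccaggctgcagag
Oxtr (chr6:112489826-112490075, minus strand): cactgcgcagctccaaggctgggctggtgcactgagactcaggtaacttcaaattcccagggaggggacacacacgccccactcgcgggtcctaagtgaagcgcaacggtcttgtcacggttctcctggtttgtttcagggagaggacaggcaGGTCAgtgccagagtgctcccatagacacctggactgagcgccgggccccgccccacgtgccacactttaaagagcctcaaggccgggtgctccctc
In Klk1b1 the GGTCA arms begin at -190 and -156 from the start, in Dpep1 at -52, in Alpl at -229, -30 and -18 and in Oxtr at -97. Alpl has another promoter in the table, which is not shown. The other 3 called kallikreins also held GGTCA arms within this window, 3 each in Klk1 and Klk1b21 and 2 in Klk1b24. A match is a run of letters and not a bound site.

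The PMSG response was set beside that of ESR1KO for the called genes that could be located in all 12 arrays, 48 higher and 21 lower. They were chosen by their call in WT, which favours the larger value there. The median log2 difference of the 48 was 1.97 in WT and 0.07 in ESR1KO, and that of the 21 was -1.87 and -0.23. These responses do not give the level in ESR1KO. Of the 53 higher genes, 23 had a PMSG-treated ESR1KO mean above the WT mean and 30 had one below it. In 4 of the 23 it lay above the PMSG-treated WT mean too. Of the 22 lower genes, 9 had one below the WT mean and 13 above. Lcn2 and Clu already had means of 14.04 and 13.69 in untreated ESR1KO, beside 12.51 and 13.78 in PMSG-treated WT. Itga8, an integrin subunit, was the only one of the 69 at least 2-fold different in the same direction in ESR1KO (2.70 in WT and 1.38 in ESR1KO), and Col13a1 differed by 1.06 in the opposite direction. The difference between the responses was tested in 1 fit on 1896 located rows, with an adjusted p that is an upper bound, and was called for 7 of them (0.369%), 6 of the 48 and 1 of the 21. They were Klk1b1, Arg1, Aqp8, Oxtr, Pak3 and Kcnma1, with the larger increase in WT, and Kcnip1, and all but Klk1b1 lost this call without WT replicate 3. For Klk1b1 the ESR1KO arrays lay at 1.96 to 2.13 without and 1.99 to 2.11 with PMSG, so that no Klk1b1 signal above background appeared there. For Oxtr they lay at 2.72 to 2.81 and 2.75 to 2.82, near background in both. For Arg1 they lay at 4.81 to 5.24 and 4.79 to 5.50, above WT without PMSG and below PMSG-treated WT. For Kcnip1 they lay at 7.06 to 7.74 and 7.30 to 8.25, around and above the WT arrays. For the other 62 genes the responses did not differ by this test, which does not show that they were alike.

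**Figure D4:**
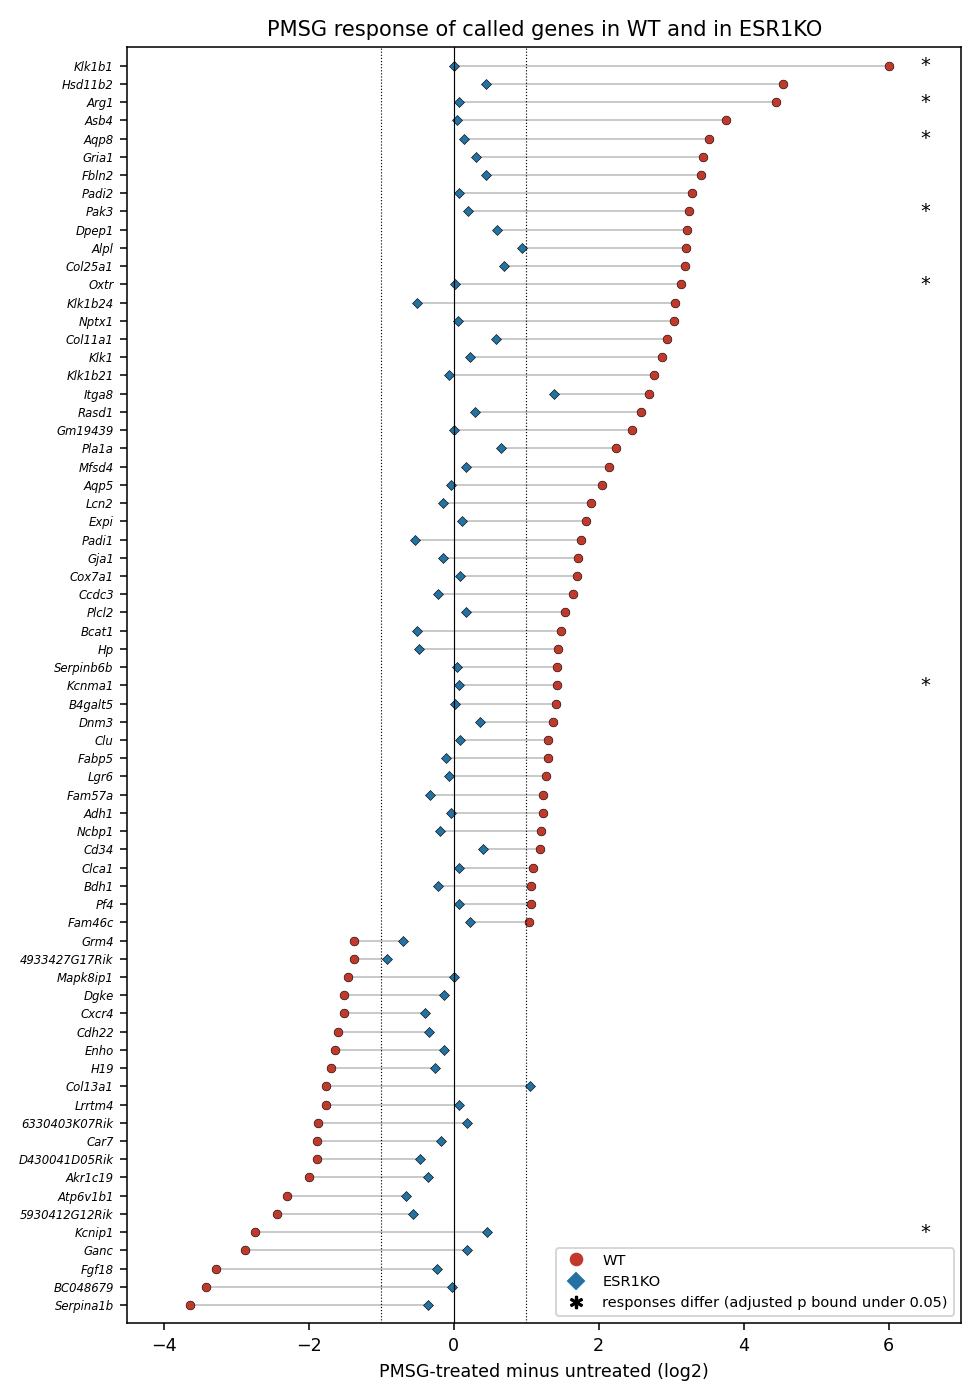
PMSG-treated minus untreated log2 expression signal in WT (red circles) and in ESR1KO (blue diamonds) for the 69 called genes located in all 12 arrays, ordered by the WT value, with dotted lines at 2-fold in either direction. The ESR1KO values lie between -0.92 and 1.38, and asterisks mark the 7 genes whose responses differ by the interaction test.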

How the data were processed

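The authors made the deposited log2 expression signals from the scanned arrays in Partek Genomics Suite 6.6. GC-RMA corrected the background, arrays were quantile-normalized, and the probes of a set were combined by median polish. The 45101 rows include 64 Affymetrix controls and carry no detection calls. Depth has no meaning for arrays, and 3 arrays per group limit the precision. The 9 columns of WT, PMSG-treated WT and PMSG-treated ESR1KO share a row order that is not that of the probe set names, which the untreated ESR1KO columns follow. Rows were therefore located through the held part of the study's list of changed genes, 1997 rows ending at Slc27a2 in alphabetical order. Its fold changes served only as a row key, and none is reported. All 1997 were found within 8.76e-05 on the log2 scale, with the nearest second candidate at 0.000157. For 1896 the implied untreated ESR1KO level and the gene symbol also located a row there, within 0.0001, and none was so located after the symbols were shuffled. Of the rows, 1914 had 1 symbol.

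Signals were fitted in R 4.3.3 with the lmFit and eBayes functions of limma 3.58.1 (variance trend on, 2.87 prior degrees of freedom) over the 9 arrays, with the contrast of PMSG-treated WT with WT and Benjamini-Hochberg adjustment over all 45101 rows. The interaction was fitted on located rows of 12 arrays with that prior variance and adjustment as for 45101 tests. In simulated data for PMSG-treated WT versus WT, 39, 36, 45 and 50 of 50 rows with a log2 difference of 1.5, 2, 3 and 4 were called, and 4 rows without one. The simulated noise was independent, with the same spread on all 9 arrays for a row. It held no array apart like replicate 3, so that these numbers may not hold for the real arrays. Named genes were the 15 largest higher and 12 largest lower called genes with groups that do not overlap, up to 4 called members of each of 28 gene lists, the 8 largest in each direction called only without PMSG-treated WT replicate 3, genes whose call was lost without it, the 6 on which it lay farthest above and below, up to 5 interaction calls per direction, and located steroid receptors and cell type markers. Padi1, Kcnma1, Clca1, Itga8, Lrat, Rbp4, Epha4, Mmp10 and the list members given without a call were named after their values were seen. A few genes that the rule covers are counted but not reported by name here. Lists were made by symbol, and members and lists were chosen with earlier results of these data known. No gene set test was run. The alternatives were no variance trend, only the 6 arrays compared, an unmoderated linear model (over 9 arrays for the WT comparison), a mean signal of at least 4, repeated quantile normalization, the replicate number as a block, array weights, no fold minimum, a 2-fold minimum for the interaction, and each array left out. Sequences came from RefSeq promoters of GRCm38.p6. Python 3.11.15 with pandas 2.3.3 and scipy 1.17.1 was used for location and description.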

Additional observations from a re-analysis of the deposited data

Results flagged for a closer look

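The PMSG response of WT differed from that of ESR1KO by the interaction test for 7 located genes. On the log2 scale the WT response exceeded the ESR1KO response by 6.00 ± 0.27 (SE) for Klk1b1 (adjusted p at most 1.06e-05, limma), by 4.38 ± 0.44 for Arg1 (at most 0.0136, limma), by 3.37 ± 0.40 for Aqp8 (at most 0.0287, limma), by 3.12 ± 0.34 for Oxtr (at most 0.0212, limma), by 3.05 ± 0.35 for Pak3 (at most 0.0287, limma) and by 1.35 ± 0.14 for Kcnma1 (at most 0.0136, limma). For Kcnip1 the difference was -3.20 ± 0.39 (at most 0.0336, limma). In each of the 7, the 3 PMSG-treated WT arrays did not overlap with the 3 WT arrays, which their call in WT favours. Klk1b1 was called under every setting run. Leaving out WT replicate 3 ended the other 6 calls, and leaving out PMSG-treated ESR1KO replicate 2 or replicate 3 ended them too. Aqp8, Oxtr and Pak3 were lost without any single untreated ESR1KO array, and Arg1 without untreated ESR1KO replicate 3. Aqp8, Pak3 and Kcnip1 were also lost without WT replicate 1 and without PMSG-treated WT replicate 1 or 2. Kcnma1 was near background in all 4 groups, so that its fold is uncertain.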

How the results depend on the processing

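None of the named called genes changed direction under any setting run. Without PMSG-treated WT replicate 3 the number of probe sets called rose from 113 to 346 (80 to 220 higher, 33 to 126 lower). Leaving out any other single array gave 41 to 89 called, 27 to 62 higher and 12 to 37 lower, with the lowest totals without WT replicates 1, 2 and 3 (44, 41 and 42). The number was 36 with only the 6 arrays (24 higher, 12 lower), 19 in the unmoderated linear model (14 and 5), 179 when rows needed a mean signal of 4 (109 and 70) and 1263 with array weights (615 and 648), whose estimation did not converge (weights from 0.134 to 57.0). The looser rule of 2-fold with an unadjusted p below 0.01 gave 293 higher and 435 lower with limma, and 201 and 235 in the unmoderated model. The counts without a variance trend (96), with repeated quantile normalization (93) and without a fold minimum (127) stayed within 1.5 times 113. The causes were not tested.

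The interaction was called for 7 rows, for 13 without a variance trend, 1 in the unmoderated model and 97 with array weights. Leaving out a single array gave 1 to 32 rows, the highest without PMSG-treated WT replicate 3 and the lowest without WT replicate 3 or PMSG-treated ESR1KO replicate 2.

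With the replicate number as a block, 46 probe sets were called (34 higher, 12 lower) and 4 interaction rows. The numbers do not pair the samples: deviations of same-numbered WT and PMSG-treated WT arrays correlated at 0.226, -0.124 and 0.0771.

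Of the 75 called genes, 9 were called under all 16 settings run for single genes, among them Klk1b1, Hsd11b2, Arg1, Col25a1, Oxtr, Pak3 and Prlr, all higher, and Akr1c19, lower. A signal near background on 1 side leaves a fold uncertain.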
